A study of Homo sapiens with 48 samples.

Results

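FCGR2A, SAMSN1, SERPINB9 and CD3D are 4 genes best known from white blood cells that were measured here in K562 cells with and without imatinib. They were chosen by their log2 differences between imatinib and mock samples of this dataset, which were strongly negative, and every probe set annotated to one of the 4 symbols was taken. That gave 5 probe sets of 22215 tested, and 4 genes of the 11963 that had a probe set of their own. SERPINB9 had 2 probe sets and each other gene had 1, and none of the 5 was shared with another gene. Since the imatinib and mock values chose the genes, their own differences are given below as a description, with no test.

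K562, an established leukaemia line of human origin with erythroid features, depends on the BCR-ABL1 kinase, the enzyme that imatinib inhibits. RNA was hybridised to Affymetrix arrays in 48 samples, which the labels divide into 8 sets with the letters A to H. Each set held 3 samples of cells given 1 micromolar imatinib for 24 hours and 3 mock-treated samples. About 8 micrograms of total RNA went into each target, and the cells are of 1 line with no other genotype named. RNA of the imatinib samples was isolated with a column kit alone and RNA of the mock samples with Trizol and then a column kit. The imatinib samples also received a reduced amount of RNA spike controls and the mock samples the full amount. Treatment and isolation therefore cannot be told apart in any set. What the letters stand for is not in the labels, and neither is whether each sample was a culture of its own. A p-value here therefore weighs a difference only against the spread among these samples, and that spread may be technical.

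Values are the authors' deposited log2 levels, 1 per probe set and sample, and a difference of -1 on this scale is a halving of the signal. The mean of all probe sets lay between 5.89 and 7.60 over the sets but differed by at most 0.053 between samples of a set, so levels were compared within sets. Levels of different probe sets are not comparable with each other, because probes differ in brightness. No detection values were used here, so a low level does not show that a transcript was absent. In bulk RNA, fewer cells of a type and less RNA per cell cannot be told apart.

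FCGR2A encodes CD32A, a low-affinity receptor for the constant part of IgG that sits on monocytes, neutrophils and platelets. It carries an immunoreceptor tyrosine-based activation motif, ITAM, in its own tail, which kinases of the Src family phosphorylate and to which the kinase SYK then binds. K562 cells have long been used as cells that carry this class of Fc receptor. CD3D encodes the delta chain of CD3, the signalling part of the T cell receptor complex, which pairs with the epsilon chain and also carries an ITAM. SERPINB9 is a serpin of clade B that stays inside cells and inhibits granzyme B, the protease that killer cells deliver to their targets. SAMSN1 is an adaptor protein with an SH3 and a SAM domain that is found in B cells and other blood cells and is related to SASH1 and SASH3.

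The promoters of the 4 genes are shown because the genes share their direction in these data while their start regions differ in composition. Each window is a RefSeq sequence of assembly GRCh38.p14 with 250 bases before and 50 bases from the transcription start, written 5′ to 3′ on the strand of the gene. Capitals mark matches, on either strand, to any of 8 short motifs: GAGGAA (ETS factors such as PU.1), TTCNNNGAA (STAT), TGANTCA (AP-1), AGATAA (bound by the factor GATA1), CACGTG (E-box), TGTGGT (RUNX), TATAAA (the TATA box) and a loose NF-kB form. FCGR2A lies on the plus strand at chr1:161505207-161505506, SERPINB9 on the minus strand at chr6:2903260-2903559 and CD3D on the minus strand at chr11:118342656-118342955. SAMSN1 has 4 listed starts on the minus strand of chromosome 21, of which start 1 at chr21:14546266-14546565 and start 2 at chr21:14583353-14583652 are shown, because both hold GAGGAA and AGATAA.
FCGR2A: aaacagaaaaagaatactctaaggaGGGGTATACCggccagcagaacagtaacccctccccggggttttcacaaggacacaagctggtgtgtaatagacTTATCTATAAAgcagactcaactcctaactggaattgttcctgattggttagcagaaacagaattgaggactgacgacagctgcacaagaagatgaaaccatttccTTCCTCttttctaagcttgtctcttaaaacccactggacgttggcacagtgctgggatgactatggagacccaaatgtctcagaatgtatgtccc
SAMSN1 start 1: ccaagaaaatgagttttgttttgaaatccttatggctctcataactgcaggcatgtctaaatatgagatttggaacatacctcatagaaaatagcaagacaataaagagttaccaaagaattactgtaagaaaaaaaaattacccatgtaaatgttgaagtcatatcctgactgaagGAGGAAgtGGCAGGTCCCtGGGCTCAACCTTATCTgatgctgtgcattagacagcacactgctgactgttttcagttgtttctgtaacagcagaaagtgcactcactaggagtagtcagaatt
SAMSN1 start 2: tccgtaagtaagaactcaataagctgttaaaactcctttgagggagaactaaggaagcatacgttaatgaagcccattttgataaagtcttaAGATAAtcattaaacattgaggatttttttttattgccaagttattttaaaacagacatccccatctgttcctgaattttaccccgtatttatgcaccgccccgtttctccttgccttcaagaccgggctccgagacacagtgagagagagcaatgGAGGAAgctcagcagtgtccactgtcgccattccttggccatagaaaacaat
SERPINB9: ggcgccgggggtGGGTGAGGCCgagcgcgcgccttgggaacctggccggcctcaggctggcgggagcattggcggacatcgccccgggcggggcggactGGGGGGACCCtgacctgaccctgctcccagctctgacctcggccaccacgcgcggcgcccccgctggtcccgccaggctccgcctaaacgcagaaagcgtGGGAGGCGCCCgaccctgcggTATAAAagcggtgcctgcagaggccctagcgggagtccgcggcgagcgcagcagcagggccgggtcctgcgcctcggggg
CD3D: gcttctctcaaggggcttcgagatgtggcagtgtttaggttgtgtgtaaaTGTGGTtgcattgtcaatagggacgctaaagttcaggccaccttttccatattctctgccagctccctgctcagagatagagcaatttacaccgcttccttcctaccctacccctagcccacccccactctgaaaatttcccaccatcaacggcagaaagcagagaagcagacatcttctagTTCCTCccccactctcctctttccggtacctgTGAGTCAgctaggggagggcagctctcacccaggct

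The SERPINB9 window was 75.7% G or C with 35 CG pairs, while the FCGR2A window was 45.0% and the CD3D window 52.3%. The 4 SAMSN1 windows were between 36.3% and 41.3% G or C, below the median of 58.7% over 35116 promoter windows of 27305 genes. GAGGAA stood in 4 of the 7 windows of the 4 genes, namely FCGR2A, CD3D and SAMSN1 starts 1 and 2, against 27.9% of all windows. AGATAA stood in 3 of 7 (FCGR2A and SAMSN1 starts 1 and 2), against 10.3% of all windows. In FCGR2A it covers bases 100 to 105, counted from 1 at the 5′ end, and shares 1 base with TATAAA at bases 105 to 110. TGANTCA stood in CD3D and in SAMSN1 start 3, against 7.71% of all windows, and TGTGGT in CD3D alone, against 13.1%. TATAAA stood in FCGR2A and SERPINB9, against 11.5%, and the NF-kB form in 3 of 7 windows (FCGR2A, SAMSN1 start 1 and SERPINB9), against 58.7%. TTCNNNGAA and CACGTG stood in 0 of 7 windows, against 7.66% and 7.26% of all. Of the 7 windows 4 are of SAMSN1, and the shares over all windows take no account of G or C content. No motif was held by all 4 genes, and a match is only a run of letters, not a measured binding site.

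FCGR2A, the IgG receptor, had a mean log2 level of 5.63 in imatinib samples and 8.36 in mock samples, a difference of -2.73 ± 0.06 (SE, 24 samples each), or 6.63-fold lower with imatinib. In set A the 3 imatinib samples read 5.43, 5.05 and 5.29, and the mock samples 8.09, 7.84 and 7.79. Set B gave 6.55, 6.35 and 6.53 with imatinib, against 9.37, 9.31 and 9.21 in mock cells. In both sets every imatinib sample lay far below every mock sample. Set C had imatinib values of 5.56, 5.74 and 5.76 and mock values of 8.27, 8.49 and 8.49. In set D, imatinib samples stood at 6.05, 6.08 and 6.12 and mock samples at 8.58, 8.08 and 8.34. Set D had the smallest difference of the 8, -2.25 ± 0.15 (SE, n = 3 each). Set E read 4.33, 4.41 and 4.40 with imatinib, against 7.22, 6.70 and 6.93 in mock samples. Set F read 5.13, 5.65 and 5.08 with imatinib, against 8.18, 7.93 and 8.01 in mock samples. In both of these sets the treatments were separated by far more than the replicates differed. Set G gave 6.11, 6.21 and 6.11 in imatinib cells and 9.42, 9.64 and 9.27 in mock cells, and its difference of -3.30 ± 0.11 was the largest. Set H gave 5.70, 5.66 and 5.82 in imatinib cells and 8.48, 8.61 and 8.36 in mock cells. No imatinib sample reached a mock sample of its own set, and the space between the highest imatinib and the lowest mock value was between 1.96 and 3.06 log2 units. The standard deviation of the difference over the 8 sets was 0.29, the smallest of the 5 probe sets.

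SAMSN1, the SH3 and SAM adaptor, averaged 5.99 in imatinib samples and 8.62 in mock samples, a difference of -2.63 ± 0.09 (SE, 24 samples each) or 6.19-fold. Set A held 6.23, 5.80 and 6.21 with imatinib and 8.34, 8.43 and 8.43 in mock samples. Set B held 6.23, 7.27 and 7.31 with imatinib and 10.09, 9.98 and 10.07 in mock samples. One imatinib sample of set B stood well below the other two, and the set's difference of -3.11 ± 0.36 was the largest and among the least precise. In set C the imatinib values were 4.54, 4.84 and 4.57 and the mock values 7.13, 7.84 and 8.00. In set D they were 5.92, 6.12 and 6.04 with imatinib and 9.22, 8.86 and 8.95 in mock cells. The difference was close to -3 in both, -3.00 ± 0.28 and -2.99 ± 0.12. Set E gave 4.25, 3.61 and 3.90 with imatinib, against 6.92, 7.01 and 6.92 in mock samples. Set F gave 5.52, 5.29 and 5.93 with imatinib, against 8.16, 8.19 and 7.23 in mock samples. The mock samples of set F were spread widely, and its difference was -2.28 ± 0.37. Imatinib samples of set G read 7.50, 7.21 and 7.47, and its mock samples 9.61, 9.81 and 9.38. Imatinib samples of set H read 7.07, 7.36 and 7.52, and its mock samples 9.33, 9.73 and 9.19. Sets G and H had the smallest differences, -2.21 ± 0.16 and -2.10 ± 0.21. The groups did not overlap in any set, with a space of 1.30 to 2.75 log2 units between them. The SD of the SAMSN1 difference over the 8 sets was 0.44. SAMSN1 had the largest replicate spread of the 4 genes, a pooled SD of 0.300 within groups against 0.163 for FCGR2A.

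SERPINB9, the granzyme B inhibitor, averaged 6.61 in imatinib samples and 9.14 in mock samples at its brighter probe set, a difference of -2.54 ± 0.07 (SE, 24 samples each) or 5.80-fold. Its imatinib samples of set A read 5.96, 5.79 and 5.86, and the mock samples 8.35, 8.51 and 8.04. For set B the values were 7.55, 7.75 and 7.77 with imatinib and 10.23, 10.24 and 10.22 in mock cells. Replicates of set B lay close together in both treatments. For set C they were 5.41, 5.97 and 5.38 with imatinib and 8.58, 8.86 and 8.93 in mock cells. For set D they were 6.71, 6.80 and 7.06 with imatinib and 9.70, 9.58 and 9.68 in mock cells. Set C had the largest difference of the brighter probe set, -3.20 ± 0.22, and set D the next, -2.80 ± 0.11. For set E the imatinib samples gave 5.73, 5.82 and 5.56 and the mock samples 8.31, 7.97 and 8.02. For set F the imatinib samples gave 7.18, 6.13 and 6.51 and the mock samples 9.46, 8.99 and 8.65. Both arms of set F were spread widely, so its difference of -2.43 ± 0.39 carries the largest error of this probe set. Imatinib cells of set G stood at 7.38, 7.50 and 7.19 and mock cells at 9.69, 9.71 and 9.49. Imatinib cells of set H stood at 7.14, 7.12 and 7.36 and mock cells at 9.37, 9.53 and 9.36. The differences of -2.27 ± 0.11 in set G and -2.21 ± 0.09 in set H were the smallest, and no set had overlapping groups.

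The dimmer SERPINB9 probe set averaged 5.19 in imatinib samples and 7.37 in mock samples, a difference of -2.18 ± 0.10 or 4.52-fold. It ranked the sets differently. In set G it read 5.61, 5.15 and 5.44 with imatinib and 8.74, 8.93 and 8.39 in mock samples, and its difference of -3.28 ± 0.21 was its largest, whereas at the brighter probe set that set had the second smallest. In set E it read 4.73, 4.80 and 4.94 with imatinib and 6.09, 6.09 and 6.19 in mock samples, and its difference of -1.30 ± 0.07 was its smallest. The SD over sets was 0.61 at the dimmer and 0.32 at the brighter probe set. The deposited probe sets of SERPINB9 thus share the direction in 8 of 8 sets but not the order of the sets, and how much the gene differed in a given set depends on which of them is read.

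CD3D, the delta chain of CD3, had the smallest difference of the 4 genes. It averaged 6.39 in imatinib samples and 8.12 in mock samples, a difference of -1.73 ± 0.08 (SE, 24 samples each) or 3.32-fold. The SD of this difference over the 8 sets was 0.41. Set A had CD3D at 5.81, 5.17 and 5.41 with imatinib and at 7.00, 7.07 and 7.00 in mock samples. Set B had CD3D at 7.65, 7.84 and 7.63 with imatinib and at 9.15, 9.13 and 9.06 in mock samples. The mock samples of each of these sets lay very close together. Set C had it at 5.90, 5.60 and 6.73 with imatinib and at 7.76, 7.68 and 7.41 in mock samples. The third imatinib sample of set C came within 0.68 log2 units of the lowest mock sample, the narrowest space found for any of the 5 probe sets. Set D had it at 6.07, 5.72 and 5.57 with imatinib and at 7.89, 7.70 and 7.73 in mock samples. Set E had it at 5.69, 5.86 and 5.86 with imatinib and at 7.56, 7.21 and 7.50 in mock samples. The differences were -1.99 ± 0.16 in set D and -1.62 ± 0.12 in set E. Set F read 6.20, 6.32 and 6.22 in imatinib cells and 8.29, 8.25 and 8.35 in mock cells. Set G read 6.85, 7.19 and 6.96 in imatinib cells and 9.28, 9.41 and 9.72 in mock cells. Sets G and F had the largest differences, -2.47 ± 0.16 and -2.05 ± 0.05. Set H read 7.25, 7.06 and 6.86 in imatinib cells and 8.23, 8.34 and 8.22 in mock cells, and had the smallest difference, -1.21 ± 0.12.

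**Figure D1:**
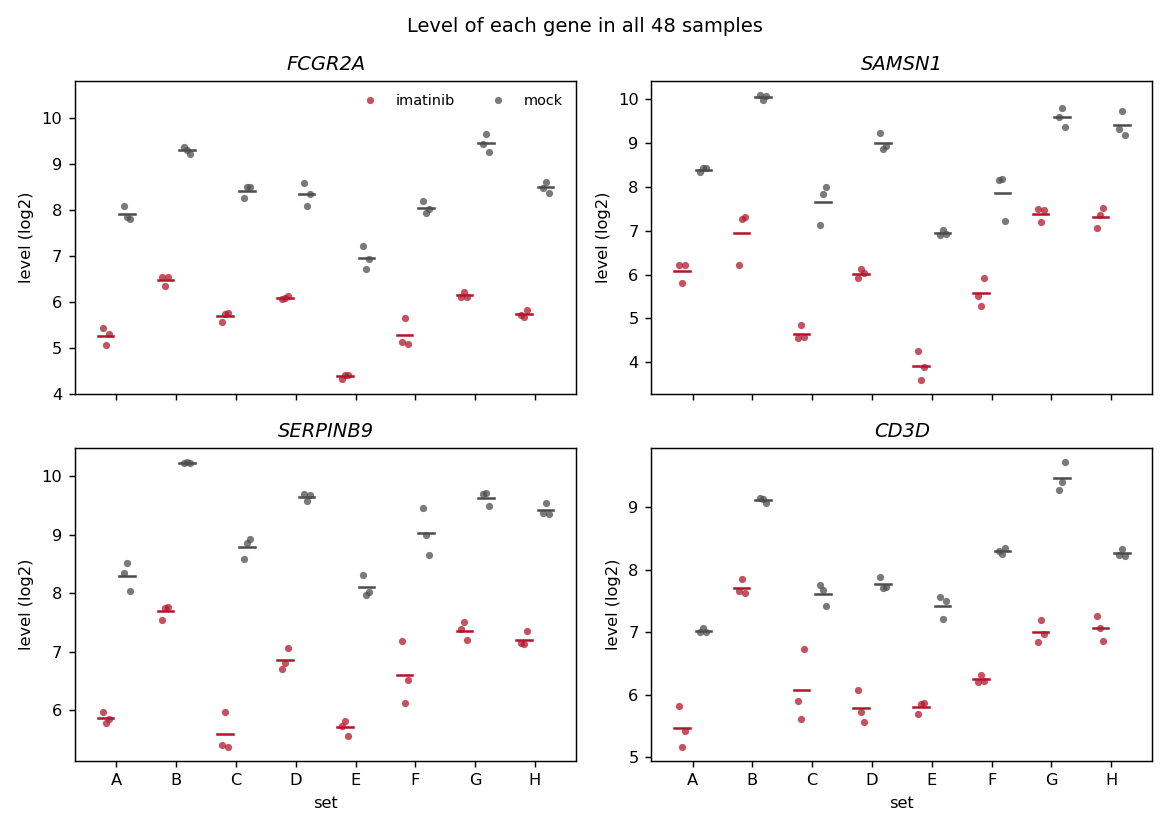
Deposited log2 level of FCGR2A, SAMSN1, SERPINB9 (brighter probe set) and CD3D in every sample, by set A to H, with imatinib samples in red at the left and mock samples in grey at the right of each set and a line at the mean of 3. Imatinib samples lie below the mock samples of their own set in 8 of 8 sets for each gene, while the level of both groups moves up and down together from set to set.

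Imatinib and mock samples of a set did not overlap in 8 of 8 sets for any of the 5 probe sets, a pattern that 8.60% of all probe sets and 9.91% of all genes showed in the same direction. Among the genes, FCGR2A ranked 11, SAMSN1 12, SERPINB9 14 and CD3D 53 by the size of the fall, and these ranks restate how the genes were chosen. Set against the median of its own array, FCGR2A lay below it in 24 of 24 imatinib samples and 0 of 24 mock samples. SAMSN1 lay below the array median in 16 of 24 imatinib samples, CD3D in 11 and SERPINB9 in 10 at its brighter and 24 at its dimmer probe set, each with 0 of 24 mock samples. As the SERPINB9 probe sets show, such counts follow the brightness of the probes as well as the gene, so they describe the probe sets and not the amount of transcript.

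The 4 genes did not order the sets alike. Set G had the largest difference for FCGR2A, CD3D and the dimmer SERPINB9 probe set, but the second smallest for SAMSN1 and the brighter SERPINB9 probe set. Set H had the smallest for SAMSN1, SERPINB9 (brighter) and CD3D, yet for FCGR2A it had the third largest. The spread of log2 differences over all genes was itself between 0.41 in set H and 0.52 in set C. With the set means taken out, the 4 genes followed each other closely over the 48 samples, with r between 0.917 and 0.978 for the 6 pairs, which mostly reflects their common split by treatment. With the means of each set and treatment taken out, r was 0.454 for SERPINB9 with SAMSN1 and lay between -0.264 and 0.210 for the other pairs. The SERPINB9 probe sets had r of -0.204 with each other on that basis. These correlations describe the 48 samples, which share their sets and treatments, and no test was made of them.

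**Figure D2:**
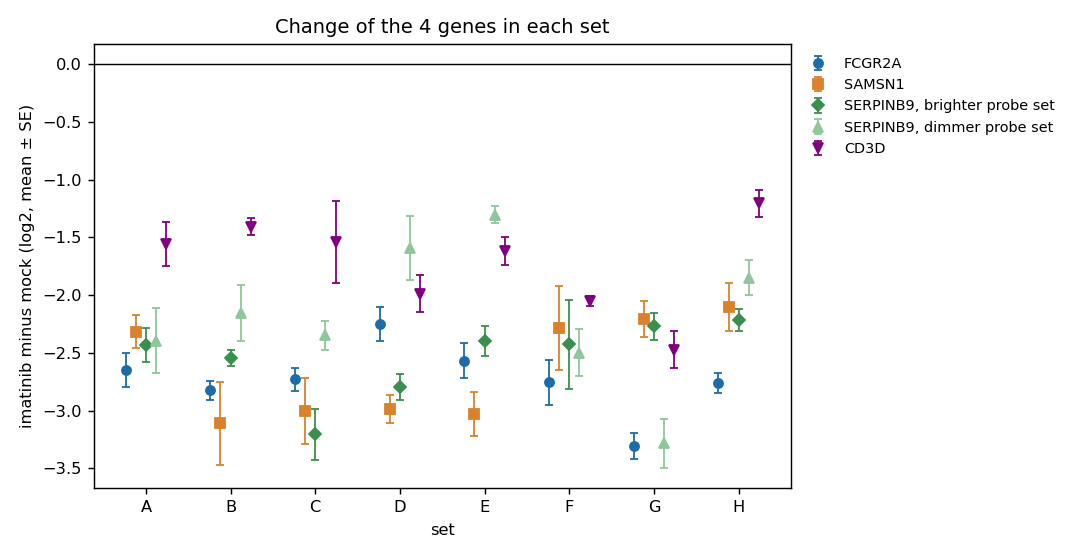
Difference of mean log2 level, imatinib minus mock, in each set A to H for the 5 probe sets, with SE over 3 samples each. Every point is below 0, FCGR2A ranges from -3.30 to -2.25 and CD3D from -2.47 to -1.21, and the SERPINB9 probe sets part most in sets D, E and G.

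Markers of the K562 line are given relative to the array median, and the identity of the cells was not tested. The mean level of the 4 measured K562 markers of 6 listed (GATA1, TAL1, HBE1 and TFRC) stood 4.49 to 5.41 log2 units above the array median in imatinib samples and 3.52 to 4.39 above it in mock samples, and all 4 rose with imatinib. Across all genes, limma with the set as a factor called 41.6% higher and 27.1% lower with imatinib. The threshold was an adjusted p under 0.05 (Benjamini-Hochberg over 22215 probe sets). These shares are the background for the lists that follow, but the share lower depended on level. Among genes at or above the median level 41.4% were higher and 39.5% lower, so the share lower was smaller below it. For a list of mostly dim genes 27.1% is therefore too high a background. In all 68.7% of genes and 65.2% of probe sets passed, the probe sets with 39.3% higher and 25.8% lower. With arrays centred on their median 6194 probe sets were higher and 6638 lower, against 8740 and 5738 as deposited. The change differed between sets, by the set-by-treatment term, for 7.03% of genes and 7.20% of probe sets. Markers of other blood cells are given in the same way, and since their probes differ in brightness these values are set only between treatments. Relative to the array median, the mean of 8 of 8 T cell markers lay between -0.489 and 0.333 log2 units in imatinib samples and between -0.910 and 0.225 in mock samples, with 4 higher and 0 lower by the test. The mean of 4 of 5 B cell markers lay between -0.409 and 0.551 in imatinib samples and between -0.666 and 0.395 in mock samples, with 3 higher and 0 lower. These T and B cell markers therefore gave no fall beside that of CD3D. The mean of 6 of 6 natural killer cell markers lay between -1.08 and -0.204 in imatinib samples and between -0.689 and -0.156 in mock samples, with 4 higher and 1, PRF1, lower. The mean of 5 of 5 monocyte markers lay between -1.83 and -1.02 in imatinib samples and between -1.80 and -1.05 in mock samples, with 0 higher and 1, LYZ, lower. For T cell, B cell, natural killer cell and monocyte markers alike, the ranges over all sets overlapped between the treatments. The part of other cell types in the 4 genes' values was not tested.

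Among the relatives of FCGR2A, most moved little. Of 11 Fc receptor family genes measured, 3 rose and 3 fell, with a median change of 0.02 against 0.05 over all genes. Only 2 of the 11 reached the median level of all probe sets, and at the dimmer ones a fall may not be seen. FCGR2C, a receptor that joins the outer part of FCGR2B with a tail like that of FCGR2A, fell by 1.82 ± 0.08 (SE), with means of 7.08 in imatinib samples and 8.90 in mock samples (limma adjusted p = 7.74e-26). Its other probe sets gave -1.49 and 0.19, and the genes of this family are so alike that their probe sets may read each other's transcripts, so the value of FCGR2C is uncertain. FCGR2B, the inhibitory receptor of the family, changed by -0.10 at a low level (adjusted p = 0.0122), and so did FCGR1BP, a pseudogene of the family, by -0.15. FCGR1A, the high-affinity IgG receptor, did not pass the test at -0.01 (adjusted p = 0.756), nor did FCGR3B of neutrophils at 0.06 (adjusted p = 0.179). FCER1G, the common signalling chain of several Fc receptors, was higher by 0.12 (adjusted p = 0.00726), FCER2, the low-affinity IgE receptor, by 0.14, and FCGRT, the neonatal Fc receptor that recycles IgG, rose by 0.29 (adjusted p = 2.64e-08). The large differences in this family were thus those of FCGR2A and of 2 of the 3 probe sets named FCGR2C.

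Downstream of these receptors, 9 of 30 measured ITAM signalling genes fell and 12 rose, or 11 and 8 with arrays centred. LYN, a Src family kinase that phosphorylates ITAMs and takes part in signalling of BCR-ABL1 cells, fell by 1.75 ± 0.06, with means of 7.79 in imatinib samples and 9.54 in mock samples (limma adjusted p = 1.19e-30). Its samples had a lowest, median and highest level of 6.24, 7.73 and 8.74 with imatinib, against 8.01, 9.63 and 10.47 in mock cells, and its other probe sets gave -1.61 and -1.47. LCP2, the adaptor SLP-76, fell by 1.10 ± 0.06 (adjusted p = 2.59e-20). FYN, another Src family kinase, moved the other way and rose by 1.09 ± 0.06 (adjusted p = 1.95e-21). Its means were 8.15 in imatinib samples and 7.06 in mock samples, and its other probe sets gave 0.92 and, at a low level, 0.13. SYK, the kinase that docks on phosphorylated ITAMs, did not pass at -0.01 (adjusted p = 0.801), although its dimmer probe set was higher by 0.10 (adjusted p = 0.0056). The median change of the list was 0.06, against 0.05 over all genes.

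The other chains of CD3 did not share the lower level of CD3D. CD3E, the epsilon chain, was slightly higher, with a lowest, median and highest level of 6.07, 7.31 and 8.50 in imatinib samples, against 5.89, 7.16 and 8.45 in mock samples. Its change was 0.17 ± 0.05 (limma adjusted p = 0.00602), a call lost without set C (adjusted p = 0.0519). CD3G, the gamma chain, did not pass at 0.05 (adjusted p = 0.198). CD247, the zeta chain, was higher by 0.11 (adjusted p = 0.0176), a call lost when all arrays were centred (adjusted p = 0.0841). Of 21 measured genes of the T cell receptor complex and T cell markers, 12 rose and 1 fell, with a median change of 0.14. The gene that fell was TRBC1, a constant region of the T cell receptor, by 0.12 (adjusted p = 0.0199), and without set A, E or F that count was 0. Among them CD4 rose by 0.20, CD5 by 0.22 and CD6 by 0.18, all co-receptors or surface proteins of T cells. CD3G, with means of 6.16 (imatinib) and 6.11 (mock), and CD247, with 5.85 and 5.74, lay below the median level of 6.43. Of the 21 genes, 7 reached that level, and at dimmer probe sets a fall may not be seen. CD3D was therefore low with imatinib without a like change at the measured probe sets of the other CD3 chains.

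The protease that SERPINB9 inhibits was dim and hardly changed. GZMB, granzyme B, had means of 4.86 in imatinib samples and 4.79 in mock samples, a change of 0.06 (limma adjusted p = 0.0489), a call lost under 41 of 61 alternative settings. Of 18 measured natural killer and granule genes, 12 rose (6 with arrays centred) and 2 fell. The genes that fell were PRF1 and SRGN. PRF1, perforin, which forms the pores for granzymes, fell by 1.60 ± 0.08, and its samples had a lowest, median and highest level of 5.55, 6.19 and 7.35 with imatinib, against 7.07, 7.78 and 9.45 in mock cells (adjusted p = 5.26e-23). SRGN, serglycin, the proteoglycan core of secretory granules, fell by 1.39 ± 0.06, with means of 9.20 in imatinib samples and 10.59 in mock samples (adjusted p = 1.04e-26). LAMP1, a lysosome membrane protein, rose by 0.29. Among 8 measured clade B serpins, SERPINB7 rose, by 0.14, and 1 fell, the only one of the 8 at or above the median level. The one that fell was SERPINB1, an inhibitor of neutrophil elastase, with a change of -0.90 ± 0.05 and means of 8.64 in imatinib samples and 9.54 in mock samples (adjusted p = 3.55e-21). SERPINB8 did not pass at 0.03 (adjusted p = 0.496).

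The relatives of SAMSN1 moved against it or little. SASH1, a larger protein with the same SH3 and SAM domains, rose by 0.36 ± 0.04 (limma adjusted p = 1.23e-11) and by 0.48 at its other probe set. SASH3, the lymphocyte member, changed by 0.13 (adjusted p = 0.0187), a call that scaling removed (adjusted p = 0.0656 when centred). SLA, an adaptor that dampens receptor signalling, rose by 0.20. Of 13 measured relatives and SH3 or SAM adaptors of blood cells, 5 rose (3 with arrays centred) and 3 fell. Beside LYN, those that fell were CTTN, the actin-binding cortactin, by 0.14 and SH3BP5, a partner of the kinase BTK, by 0.21. Beside the SASH genes and SLA, the adaptors SKAP2 (0.11) and GRAP (0.08) were higher. The lower level of SAMSN1 was thus not shared by its SASH relatives.

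**Figure D3:**
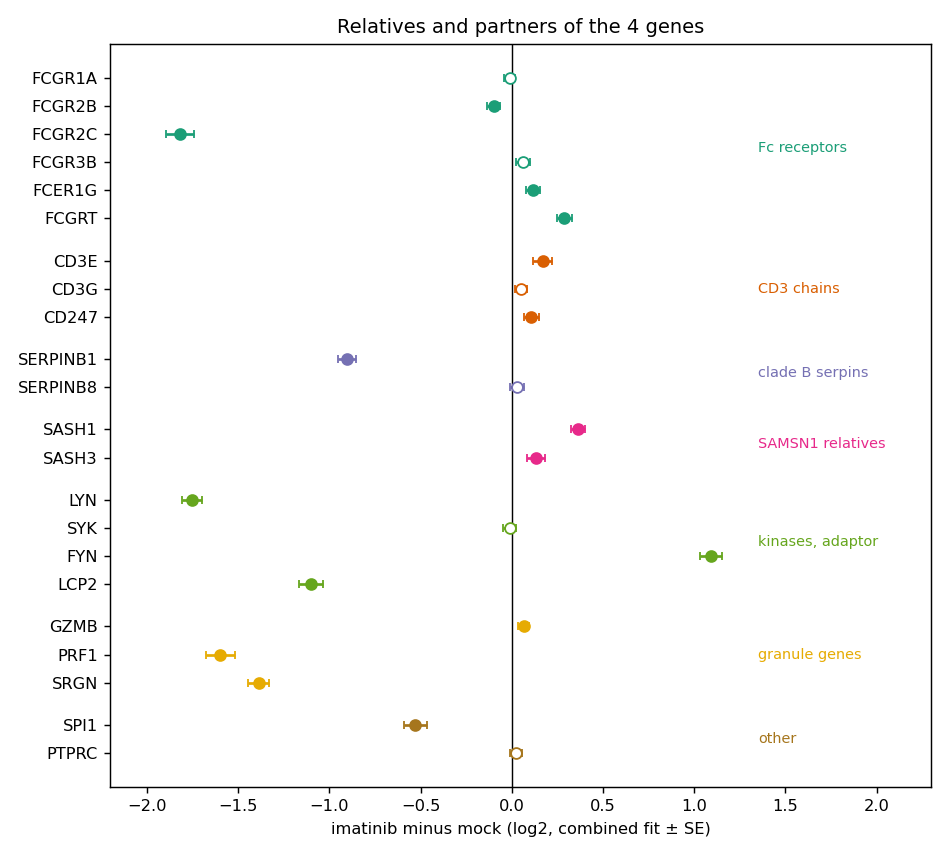
Change in log2 level, imatinib minus mock, with SE from the fit over 48 samples for relatives and partners of the 4 genes. Filled points passed an adjusted p of 0.05 and open points did not. FCGR2C, LYN, PRF1 and SERPINB1 lie well below 0, FCGR1A, CD3G and SYK at about 0, and SASH1 above it.

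Other lists of white-cell genes held both directions. Of 20 measured pan-leukocyte genes, 9 fell and 6 rose, with a median change of -0.03. Of the 11 at or above the median level 7 fell, against 39.5% of all genes at such levels (and 41.4% of those rose). CD53, a tetraspanin of white cells, fell by 1.32 ± 0.04 (limma adjusted p = 9.09e-30), LAPTM5, a lysosomal protein of blood cells, by 0.92 ± 0.03 and RAC2, a GTPase of blood cells, by 0.91 ± 0.03. PTPRC, which encodes CD45, did not pass at 0.02 (adjusted p = 0.572). Of 32 measured transcription factors of myeloid and lymphoid genes, 8 fell and 9 rose. MYB, a factor of blood progenitors, fell by 1.96 ± 0.04, with means of 8.71 in imatinib samples and 10.66 in mock samples (adjusted p = 9.08e-37). CEBPB, a factor of myeloid genes, fell by 1.25 ± 0.05 and NFATC3, a calcium-regulated factor, by 1.31 ± 0.05. The other probe sets of NFATC3 gave -0.55 and -0.59, and that of MYB, at a low level, -0.27. SPI1, which encodes PU.1, a regulator of myeloid genes, fell by 0.53 ± 0.06 at a low level of 5.49 in imatinib samples and 6.02 in mock samples (adjusted p = 3.76e-10).

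Lists of B cell and myeloid cell markers showed small changes. Of 11 measured B cell genes, 5 rose (2 with arrays centred) and 0 fell, with a median change of 0.06. Only 3 of the 11 reached the median level of all probe sets. The B cell receptor chain CD79A was higher by 0.12 (limma adjusted p = 0.0129), a call lost when arrays were centred, and CD22, an inhibitory receptor of B cells, rose by 0.19. CR2, a complement receptor, was higher by 0.29, CD79B by 0.13 and the factor PAX5 by 0.08 (adjusted p = 0.0453), a call lost in 36 of 62 alternative settings. Of 23 measured monocyte, macrophage and granulocyte genes, 11 rose (3 with arrays centred) and 2 fell, and 2 of the 23 reached the median level of all probe sets. The genes that fell were LYZ, lysozyme, by 0.44 and TYROBP, the ITAM adaptor DAP12, by 0.39. Against these, 10 of 11 measured genes of K562 identity rose and 0 fell, with a median change of 0.92. HBZ, the embryonic zeta globin, rose by 3.13, TAL1, an erythroid factor, by 2.44 and KLF1, the factor of adult globin genes, by 2.22. Other probe sets of TAL1 gave 1.22 and, at a low level, 0.14. The lowest change was -1.82 among Fc receptors, -0.12 among T cell genes, -0.90 among serpins and -1.75 among the SAMSN1 relatives and adaptors. These values are not set against the 4 genes, because those were chosen for their falls.

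**Figure D4:**
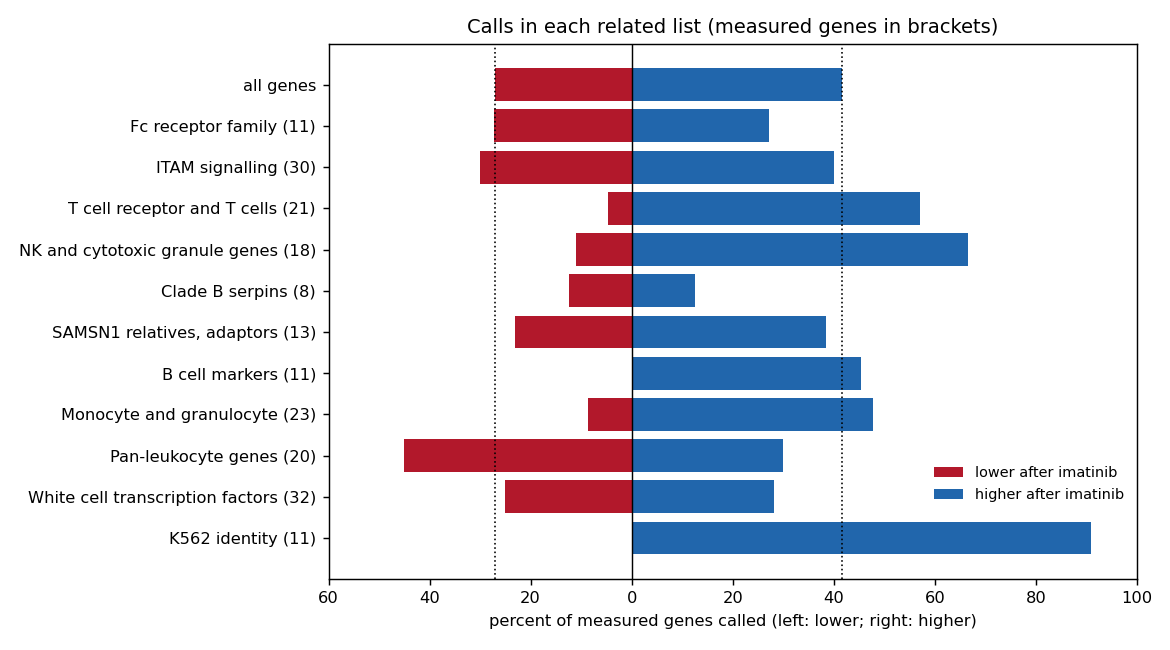
Percent of measured genes of each list called lower (left) and higher (right) with imatinib, with dotted lines at 27.1% and 41.6% for all genes. The lines hold genes of any level, and 39.5% of genes at or above the median level were lower. The pan-leukocyte list has the largest share lower, 9 of 20, and the K562 identity list the largest share higher, 10 of 11, while B cell genes have none lower.

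The measured genes next to the 4 on their chromosomes were read from the order of genes in RefSeq assembly GRCh38.p14, whatever their distance. Of 36 measured neighbours, up to 5 on each side, 13 rose and 15 fell, with a median change of 0.00. Of all genes 41.6% rose and 27.1% fell. FCGR2A has HSPA6, a heat shock protein, and FCGR2C on one side, and HSPA6 fell by 0.75 ± 0.06 (limma adjusted p = 2.62e-15), but its other probe set gave -0.07. On the other side SDHC, a subunit of succinate dehydrogenase, changed by 0.15 and NR1I3, a nuclear receptor, by 0.08, a call lost in 11 of 61 alternative settings (adjusted p = 0.193 with arrays centred). Of the 10 measured neighbours of FCGR2A, 5 fell and 4 rose. SAMSN1 has HSPA13 on one side, an HSP70 relative that fell by 0.99 ± 0.08 (adjusted p = 6.01e-15). NRIP1, a co-repressor of nuclear receptors on the other side, fell by 0.52 (adjusted p = 1.25e-09), and USP25, a ubiquitin protease, by 0.13 (adjusted p = 0.00295), lost after quantile scaling (adjusted p = 0.0721). Of the 6 measured neighbours of SAMSN1, 5 fell and 1 rose, CXADR, a virus receptor, by 0.11. They are spread widely, with HSPA13 102 kb away, NRIP1 302 kb, USP25 1071 kb, CXADR 2854 kb and the farthest 3130 kb.

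The measured genes nearest to SERPINB9 are SERPINB1 on one side and NQO2 on the other, and both fell. NQO2, a quinone reductase that is itself known to bind imatinib, had a lowest, median and highest level of 6.73, 7.62 and 8.67 in imatinib samples, against 9.45, 10.07 and 11.11 in mock samples. It fell by 2.45 ± 0.05 (SE; limma adjusted p = 1.03e-39), between the brighter (-2.54) and the dimmer (-2.18) probe set of SERPINB9. Its groups did not overlap in any of 8 sets, as for 9.91% of genes. The next measured genes, WRNIP1 and BPHL, were at 0.00 (adjusted p = 0.937) and 0.13 (adjusted p = 0.000358). Of the 10 measured neighbours of SERPINB9, 4 fell and 4 rose. CD3D lies between CD3E and CD3G, which did not fall, and beyond them MPZL2 (-0.01, adjusted p = 0.855) and UBE4A (-0.01, adjusted p = 0.879) did not pass the test. Of the 10 measured neighbours of CD3D, 1 fell, IL10RA, a chain of the interleukin 10 receptor, by 0.81, and 4 rose. Across all genes 27.1% were called lower and 41.6% higher. With 10 neighbours each, the counts beside CD3D and SERPINB9 are a description, and a difference between them was not tested.

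**Figure D5:**
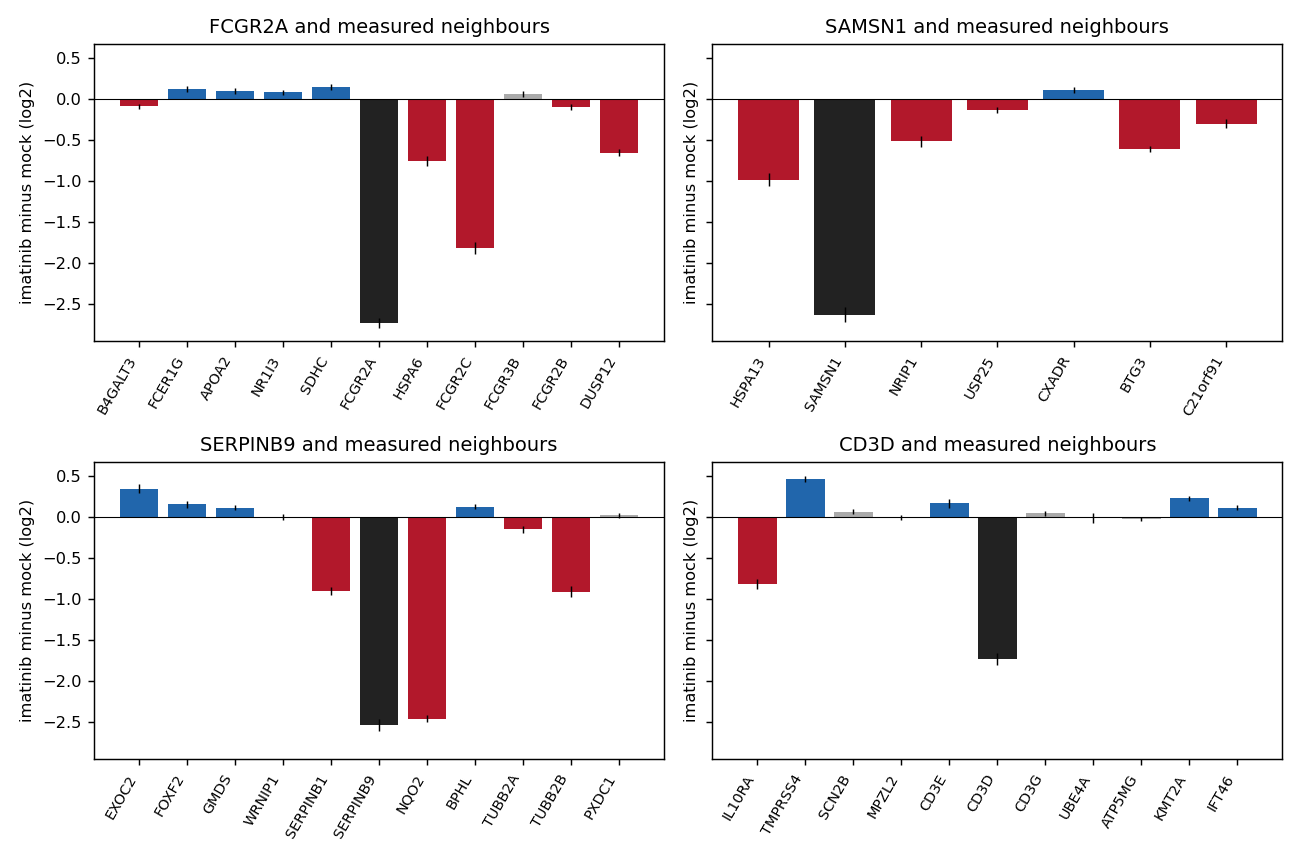
Change in log2 level, imatinib minus mock, of up to 5 measured neighbours on each side of each gene, in chromosome order, with the gene itself in black, neighbours that fell in red, that rose in blue and that did not pass in grey, and lines for the SE. NQO2 beside SERPINB9 at -2.45 and FCGR2C near FCGR2A at -1.82 have the longest bars among the neighbours.

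The genes whose pattern was most like each of the 4 were found by Pearson's r over the 48 samples after set means were removed, a measure that mainly ranks how cleanly a gene splits by treatment. For FCGR2A these were CXCL8, the neutrophil chemokine interleukin 8 (r = 0.989, change -2.82), GMFG, an actin regulator of blood cells, SLC39A14, a zinc and iron transporter, ERAL1, a GTPase of mitochondrial ribosomes, and PDE4DIP, a centrosome and Golgi protein, with r down to 0.985. For SAMSN1 they were SOCS2, a feedback inhibitor of cytokine signalling (r = 0.989, change -2.15), SLC25A32, a folate carrier of mitochondria, YES1, a Src family kinase, KIF2A, a motor of spindle microtubules, and CCND2, cyclin D2. With the means of each set and treatment removed as well, r of these 5 with SAMSN1 was 0.755 for SOCS2, 0.740 for SLC25A32, 0.641 for YES1, 0.630 for KIF2A and 0.628 for CCND2. These genes were picked by an r that holds the same deviations, so the values are a description of the genes picked.

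For SERPINB9 the most alike were CMTM6 (r = 0.990, change -2.27), which stabilises the checkpoint ligand PD-L1, MLLT11, FN1, which encodes fibronectin, TMEM158 and CD24, a surface glycoprotein of immature B cells. Within set and treatment, r of these 5 with SERPINB9 lay between 0.485 for TMEM158 and 0.578 for FN1. For CD3D they were ETV5, an ETS factor (r = 0.972, change -1.90), IGFBP4, a binding protein of insulin-like growth factors, MRTO4, a ribosome assembly factor, ERAL1 and SRM, spermidine synthase, and r did not exceed 0.972. Within set and treatment, r with CD3D was 0.140 for ETV5, 0.174 for IGFBP4, 0.204 for ERAL1, 0.311 for SRM and 0.394 for MRTO4. With FCGR2A it was 0.464 for GMFG, 0.456 for SLC39A14, 0.454 for CXCL8, 0.174 for ERAL1 and -0.084 for PDE4DIP. At the other probe sets of ETV5 the change was -0.72 and -0.60, and at that of CXCL8 it was -1.78.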

How the data were processed

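RNA of 48 samples was measured on Affymetrix arrays. The authors deposited 1 log2 value per probe set and sample for 22283 probe sets. How they were background-corrected, summarised and normalised is not given in the sources used here, and their log2 scale was read from the values (2.41 to 14.9). The 68 control probe sets were left out. Gene names came from the platform annotation and were brought up to date with RefSeq (GRCh38.p14). Of 22215 tested, 19065 had 1 symbol (19053 matched RefSeq), 1043 had several and 2107 had none. A gene was its brightest probe set with 1 symbol.

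Groups came from the description and title, since keywords of imatinib samples also name mock treatment. limma 3.58.1 (R 4.3.3; lmFit, eBayes) fitted set and treatment over all 48 samples, and a second fit added set-by-treatment terms, with p-values adjusted by Benjamini-Hochberg at 0.05. The fits were tested on simulated data.

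The 4 genes, the lists and the motifs were chosen with earlier results of these data known. Genes named beside the 4 are fixed relatives, up to 3 called genes per list of smallest p at or above the median level (6.43), the 5 most alike per gene, and the nearest 2 measured neighbours on each side. Likeness was ranked only among genes at or above the median level. FCGR3A, SERPINB6 and RUNX1 were not analysed here. The other genes that make up a count of 5 or fewer were named after their values were seen. No replicates were identical: the closest pair differed by up to 0.67.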

Additional observations from a re-analysis of the deposited data

Results flagged for a closer look

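For 26 of the 70 genes named beside the 4, the change with imatinib differed between the sets. The test was that of the set-by-treatment term (limma, adjusted over all probe sets), which 7.03% of all genes passed. Some of the 70 were picked from these same values, by smallest p or by highest r, so these shares are not comparable. The number of probe sets that passed depended on single sets and samples: it was 1599 in all, 707 without set C, 963 without imatinib sample 3 of set C, 2928 without imatinib sample 1 of set E and 973 with the replicate block. The 4 genes were not tested for this, because their values in these sets chose them. Among relatives and partners, FCGR2C changed by between -2.41 in set C and -1.21 in sets A and E (adjusted p = 0.000104). PRF1 changed by between -2.57 in set G and -0.94 in set E (0.000123), LCP2 by between -1.79 in set G and -0.69 in set C (0.000341) and SPI1 by between -1.32 in set G and -0.27 in set B (0.00103). SRGN had its largest fall in set C, -1.98, and its smallest in set F, -0.94 (0.00251). LYN ranged from -2.25 in set C to -1.46 in set H (0.0236). SERPINB1 (0.0282) and MYB (0.0327) passed as well.

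Among neighbours, HSPA6 ranged from -1.59 in set G to -0.45 in set E (adjusted p = 1.45e-05) and NQO2 from -2.81 in set D to -2.15 in set A (0.0104). HBZ rose in each set, by 2.52 in set G to 3.96 in set E (7.74e-06). Among the genes of like pattern, the smallest adjusted p-values were 1.57e-06 for ETV5, 8.54e-06 for CD24, 4.21e-05 for IGFBP4 and 0.000199 for TMEM158. The test also passed for CXCL8 (0.00134), CCND2 (0.00454), CMTM6 (0.00706), MLLT11 (0.00864), SOCS2 (0.0117) and ERAL1 (0.0166). YES1 (0.0189), FN1 (0.0198), KIF2A (0.0206), SLC25A32 (0.0209) and PDE4DIP (0.0311) passed too. Each of these genes kept 1 direction in all 8 sets.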

How the results depend on the processing

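No called value changed its direction under any setting; among genes that did not pass, FCGR1A, SYK, PTPRC, SERPINB8, WRNIP1, MPZL2 and UBE4A lay close to 0 and on both sides of it. Leaving out 1 sample at a time gave FCGR2A -2.755 to -2.705, SAMSN1 -2.67 to -2.58, SERPINB9 -2.568 to -2.507 (dimmer -2.219 to -2.136) and CD3D -1.768 to -1.698. Other scalings moved the split of calls: 8740 probe sets were higher and 5738 lower as deposited, 6194 and 6638 with arrays centred, and 7394 and 5761 after quantile scaling.

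Counts of genes called in a list were less stable. With arrays centred, 6 natural killer, 3 SAMSN1 adaptor, 2 B cell and 3 monocyte genes were higher, and after quantile scaling 5, 3 (B cell) and 3 (monocyte). With only probe sets at or above the median level, which leaves fewer genes, 9019 probe sets were called, 4535 of them higher. Then 1 Fc receptor gene was higher and 1 lower, 7 ITAM, 6 T cell, 5 natural killer, 0 serpin, 3 adaptor, 3 B cell, 1 monocyte, 2 pan-leukocyte, 5 transcription factor and 7 neighbour genes were higher, 0 T cell, 0 monocyte and 5 transcription factor genes were lower, and the change differed between sets at 957 probe sets. With 1 difference per set, 7 natural killer, 3 B cell, 6 monocyte and 3 pan-leukocyte genes were higher, and no set-by-treatment value can be computed. Without set A, E or F, 0 T cell genes were lower. Without set A, G or H, and with the mean over a gene's probe sets, 2 serpins were higher. B cell genes higher were 2 without set B, 3 without set C and 3 without set E. Monocyte genes higher were 7 without set B, 6 without set C, 6 without set D and 4 without set E. The cause of these moves was not tested.

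Imatinib and mock samples of the same number in a set deviated together with a median r of 0.016 (24 pairs, -0.515 to 0.488). For different numbers it was -0.032 (48 pairs), so no pairing by number was seen. With 3 samples per group, a weak pairing could go unseen. With the replicate block, 14063 probe sets were called (8401 higher, 5662 lower), 3 B cell genes were higher and the change differed between sets at 973 probe sets, against 1599 without it. Leaving out set C gave 707. Leaving out 1 sample gave 963 to 2928 such probe sets: 963 without imatinib sample 3 of set C, 973 and 1029 without its mock samples 2 and 3, 2584 without its imatinib sample 2 and 2928 without imatinib sample 1 of set E. It gave 14032 to 14936 calls, 3 to 6 B cell genes higher and 1 to 2 serpins higher. Within set and treatment, the likeness was 0.454 for CXCL8, 0.755 for SOCS2, 0.523 for CMTM6 and 0.140 for ETV5. Among single genes, FCGR2B was lost with 1 difference per set (adjusted p = 0.0541) and without set A (0.075), CD3E without set C (0.0519), PAX5 in 36 of 62 settings and NR1I3 in 11 of 61. Arrays give no read depth, so the number of samples limits the precision.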

Other observations

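Of genes usually linked to white cells that are on none of the lists, 2 were picked after their values were seen and are given as a description. CD69, an early activation marker of lymphocytes, had a mean log2 level of 4.22 in imatinib samples and 7.10 in mock samples, a difference of -2.88 ± 0.13 (SE, 24 samples each), and its mean over all samples was below the median level. PRKCB, a protein kinase C of B cells, had means of 8.91 in imatinib samples and 10.98 in mock samples, a difference of -2.07 ± 0.04. For both of these genes all imatinib samples lay below all mock samples in 8 of 8 sets, as for 9.91% of genes.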
